A study of Mus musculus with 4 samples.

Results

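Fos summits were located at 8 goblet cell genes of the mouse colon, out of 21631 protein-coding genes on autosomes or chromosome X. The genes were 2 transcription factors that direct the goblet cell program, Spdef and Creb3l1, and 6 products of the secretory pathway, Tff3, Clca1, Fcgbp, Agr2, Zg16 and Retnlb. The rule names the genes and uses no Fos value, but it was set with earlier results of these data known. The transcription factor gene Foxa3 was left out by the rule that defined the set. A summit, the base where the fragments of a called peak pile up highest, was assigned to a gene when it lay inside the gene's span or within 50 kb of it. By this rule 285 of 178981 summits lay at the 8 genes, and none of them was shared between members.

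The signal came from CUT&Tag, which uses an antibody, here against Fos, to bring the cutting and tagging enzyme Tn5 to the DNA around its target. All animals were wild type, and the 4 libraries comprised 2 of mice recovered from colitis and 2 of healthy controls, with 1 batch label. Recovered mice had drunk 1 to 1.5% dextran sodium sulfate (DSS), which injures the colonic epithelium, in 3 cycles with 7 days on and 10 days off, and their colons were taken 22 days after DSS ended. Colons of both groups were kept for 30 min in 4 mM EDTA with 10% serum, and the mucosa was then scraped off. A single peak list was deposited, without values per library, so recovered and healthy colon could not be compared, and no value given here has a replicate error. Which libraries entered the list was not given in the sources used here.

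Goblet cells make the mucus that separates the colonic epithelium from its bacteria. Spdef, a factor of the ETS family, drives the maturation of secretory progenitors into goblet cells, and Creb3l1 (OASIS) is a leucine zipper factor held in the membrane of the endoplasmic reticulum and released by proteolysis. The products fold, build, process or arm the mucus, whose main mucin is Muc2. Fos, a subunit of the AP-1 family of leucine zipper factors, is induced by growth signals, stress and injury.

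The promoters show where Fos signal lay relative to the start of transcription, which the gene spans alone do not give. Of the 8 genes, 3 matched the RefSeq promoter table of GRCm38.p6 (mm10), which holds 250 bases before and 50 bases after each start. Creb3l1, Tff3, Clca1, Zg16 and Retnlb were not matched. The Spdef window is chr17:27728902-27729201 on the minus strand, and its capitals mark 21 bases centred on a summit of fold 8.90, 171 bp upstream of the start. The Fcgbp window is chr7:28070986-28071285 on the plus strand, with capitals at 21 bases centred on a summit of fold 59.2, 144 bp upstream. The Agr2 window is chr12:35992675-35992974 on the plus strand. It held no summit and lay between one of fold 36.3, 286 bp upstream of the start, and one of fold 21.9, 91 bp downstream, and its capitals mark the first 10 transcribed bases.
Spdef: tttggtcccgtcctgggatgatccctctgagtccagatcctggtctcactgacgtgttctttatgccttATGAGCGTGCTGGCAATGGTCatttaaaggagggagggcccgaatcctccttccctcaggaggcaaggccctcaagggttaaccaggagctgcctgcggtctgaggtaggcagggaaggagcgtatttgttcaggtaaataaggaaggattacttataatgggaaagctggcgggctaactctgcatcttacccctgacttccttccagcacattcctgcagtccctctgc
Fcgbp: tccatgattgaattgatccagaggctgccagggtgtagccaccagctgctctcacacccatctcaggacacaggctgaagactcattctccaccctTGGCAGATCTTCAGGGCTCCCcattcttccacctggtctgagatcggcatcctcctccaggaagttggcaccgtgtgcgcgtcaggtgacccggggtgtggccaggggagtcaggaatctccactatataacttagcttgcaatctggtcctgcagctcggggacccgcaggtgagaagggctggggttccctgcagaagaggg
Agr2: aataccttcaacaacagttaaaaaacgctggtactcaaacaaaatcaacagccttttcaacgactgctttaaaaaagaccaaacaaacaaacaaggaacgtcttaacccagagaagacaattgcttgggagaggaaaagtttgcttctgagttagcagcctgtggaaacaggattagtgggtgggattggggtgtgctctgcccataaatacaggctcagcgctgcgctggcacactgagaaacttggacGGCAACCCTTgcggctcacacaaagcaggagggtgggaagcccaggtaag
The AP-1 motif TGANTCA, searched on both strands, was present in none of the 3 promoters and in 7.81% of all 32851 promoters of the table. The CRE motif TGACGTCA, also searched on both strands and not overlapping in its letters with TGANTCA, was likewise in none of the 3 and in 1.79% of all. These letters are thus not in these windows, and the wider sequence around the summits was not searched. The GC content was 53.3% in the Spdef window, 58.3% in that of Fcgbp and 47.3% in that of Agr2.

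All 8 genes had at least 1 Fos summit in the window, as did 86.3% of all protein-coding genes, and the counts lay between 4 at Retnlb and 74 at Creb3l1. The median was 36.0 summits per gene, against 16 (interquartile range 5 to 29.0) over all protein-coding genes. Creb3l1 had more summits than 98.6% of all genes, Clca1 with 49 more than 92.6%, Spdef with 40 more than 86.3% and Zg16 with 39 more than 85.3%. Agr2 had 33, Tff3 27 and Fcgbp 19, and Retnlb had more than 22.3% of all genes. Each gene's window grows with its length, and the spans differed widely, with 49.6 kb at Fcgbp against 2.04 kb at Retnlb. Counted per 10 kb of window, Creb3l1 still led with 5.22 and Retnlb was still last with 0.392, beside a median of 1.11 over all genes. In bulk mucosa the list does not tell which cells, goblet cells, colonocytes or others, gave the signal at these genes. Number of cells and Fos signal per cell cannot be told apart either.

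**Figure D1:**
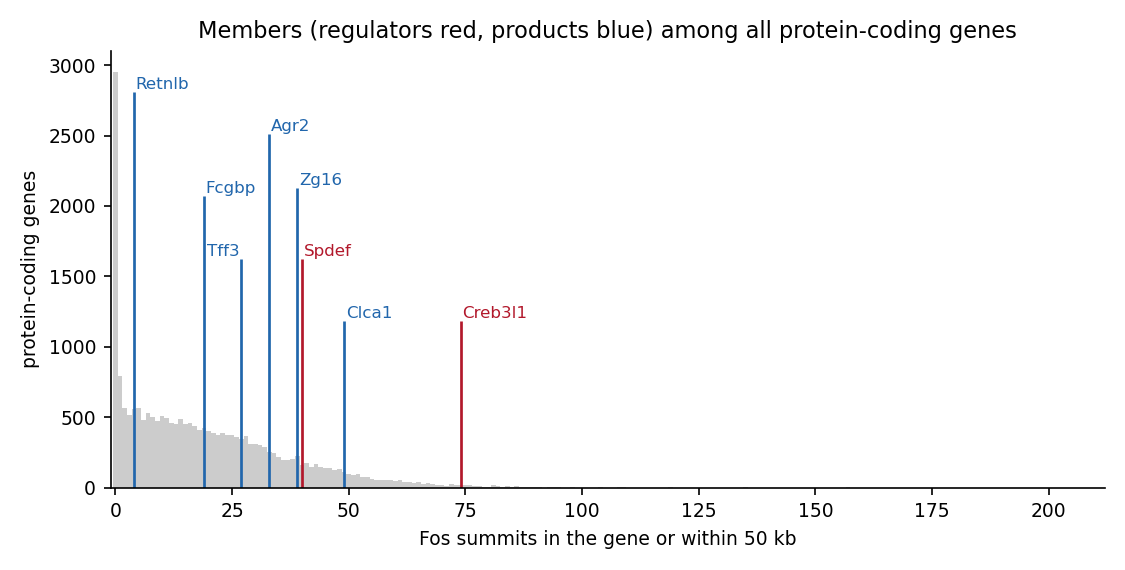
Number of protein-coding genes (vertical axis) by the number of Fos summits in the gene or within 50 kb (horizontal axis), with the 2 regulators as red lines and the 6 products as blue lines whose heights carry no value. Creb3l1 with 74 summits stands far out in the tail, 7 members lie above the median gene with 16, and Retnlb with 4 lies below it.

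All 8 genes had a summit within 1000 bp of one of their own boundaries, as did 62.0% of all protein-coding genes. A boundary here is either end of the span, since the gene table carries no strand. Most of these summits were weak. A fold of at least 20 at a boundary of the gene itself was reached by 2 of the 8, Fcgbp and Agr2, against 37.1% of all genes. At least 1 summit lay inside each of the 8 genes, against 68.4% of all genes, and a summit of fold 50 or more lay in or within 50 kb of 5 of the 8, namely Creb3l1, Clca1, Fcgbp, Agr2 and Zg16, against 53.0%. That last share is near the share of all genes. The fold given throughout is the authors' enrichment of the fragment pileup over background, with 1 added to each, and its median over all summits of the list was 6.73.

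Spdef (chr17:27714446-27731003) was surrounded by many summits of moderate height. Of its 40 summits, 9 lay inside the gene, 11 below it and 20 above it, by coordinate. Their median fold was 5.29, and none reached 50. The strongest reached fold 31.3 at a pileup of 129 overlapping fragments (exact 95% Poisson interval 108 to 153, for counting error only), 10631 bp above the gene, but Ilrun was nearer, at 9598 bp. Inside the neighbouring gene Ilrun itself lay the next, of fold 28.4 at 47082 bp. Among the 18 summits that had Spdef as their nearest gene, the highest was of fold 25.3, 3956 bp above the upper boundary and thus on the upstream side of this minus-strand gene. The highest inside Spdef had a fold of 23.6 with 97 fragments (78.7 to 118). Signal at the ends of the gene was lower than at these sites. The only summit within 1000 bp of a boundary of Spdef had a fold of 4.09, 708 bp below the lower end. The promoter summit of fold 8.90 shown in capitals above lay inside the span, since the RefSeq start used for the promoter, 27728951, lies below the upper end of the gene. Pacsin1 was the nearest gene to 9 of the 40 summits, the highest of them with a fold of 15.2.

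Creb3l1 (chr2:91982328-92024170) had the densest signal of the 8 genes. Its 74 summits lay in 42 regions, with 26 inside the gene, 21 below and 27 above it. Creb3l1 was the nearest gene to 53 of them, and Dgkz, which encodes a diacylglycerol kinase, to the other 21. The strongest, at 92047851 in intergenic sequence 23681 bp above the gene, reached fold 78.9 with 327 fragments (293 to 364). The next, at 91984747 inside the gene, reached fold 64.0 with 265 fragments (234 to 299), and these intervals overlap at their ends. Another summit inside the gene, at 92008550, reached fold 43.5. Of the 15 summits of fold 50 or more at the 8 genes, the one at 91984747 was the only one inside a member. Close to the upper end, 8 summits shared 1 region of 3334 bp at chr2:92027277-92030610, the widest at any member, with a highest fold of 23.8. The annotation places the lncRNA gene Gm31473 within 1000 bp of that highest summit. The summits at the gene's own upper boundary were weaker, with folds of 10.6 at 538 bp inside and 5.53 at 422 bp outside it. Inside Creb3l1 there were 6.21 summits per 10 kb, against a median of 0.800 over all genes.

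**Figure D2:**
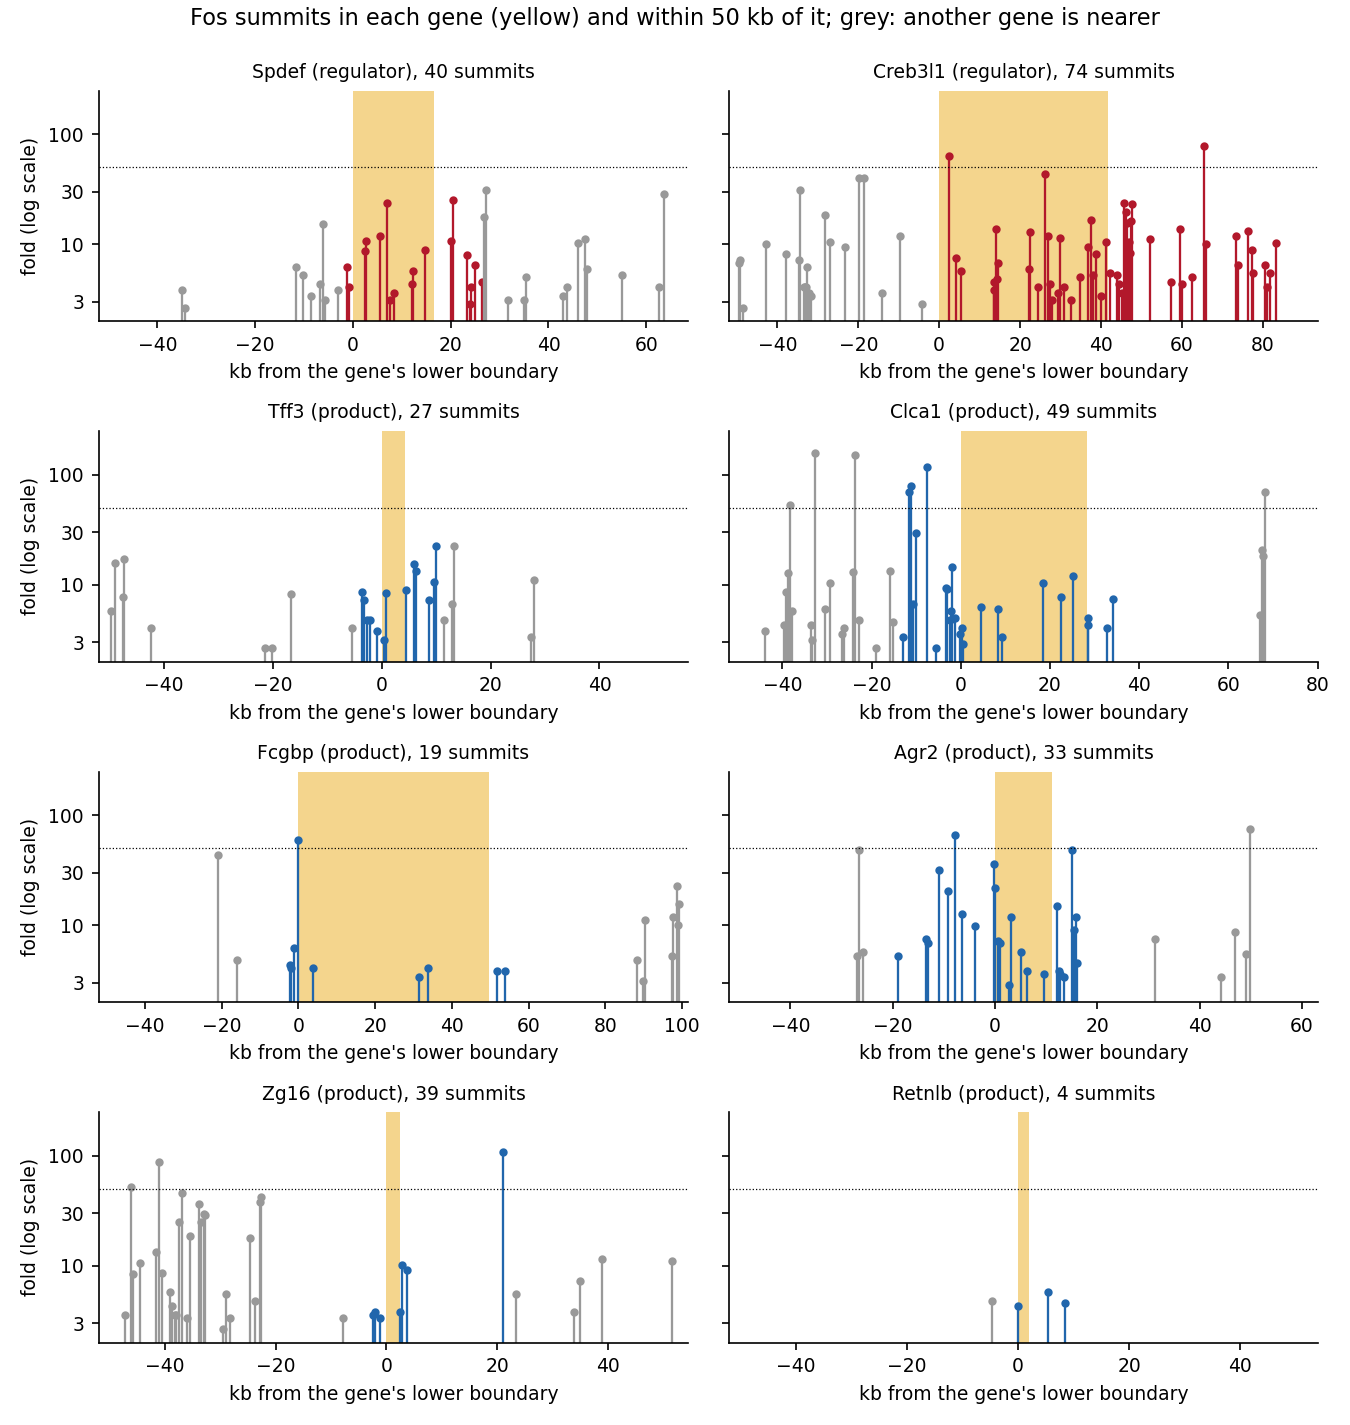
Position of each summit in kb from the lower boundary of its gene (horizontal axis, by coordinate and not by strand) and its fold on a log scale (vertical axis), with the gene's span in yellow, summits whose nearest gene is the member in red (regulators) or blue (products), and the rest in grey. The dotted line is a fold of 50, which 2 summits pass at Creb3l1 and none at Spdef, Tff3 or Retnlb, and the tallest summits at Clca1 and Zg16 stand outside the yellow spans.

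Tff3 (chr17:31125306-31129611) encodes a trefoil peptide that goblet cells secrete with mucin and that aids the closing of epithelial wounds. Of its 27 summits, 2 lay inside the short gene. The strongest, of fold 22.6 with 93 fragments (75.1 to 114), lay 8930 bp above Tff3 but only 2521 bp from the related gene Tff2. The strongest that was nearest to Tff3 had a fold of 22.4 with 92 fragments (74.2 to 113) and lay 5618 bp above it. These counts overlap within their intervals, so the pair did not differ beyond counting error. A further pair 1672 and 1934 bp above the gene had folds of 15.6 and 13.5. At its own boundaries Tff3 had 4 summits, of folds 3.13 to 8.90, the highest 190 bp above the upper end. The far side of the window belonged to the sterol exporter gene Abcg1, the nearest gene to 9 summits with folds of up to 17.1. Trefoil genes are paralogs that lie side by side here, and how reads were placed among paralogs was not given in the sources used here, which holds for Clca1 and its Clca neighbours, for Agr2 and Agr3, for Retnlb and for Fcgbp as well.

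Clca1 (chr3:145004537-145032776), whose product is a secreted metalloprotease of the mucus, had the strongest summit at any of the 8 genes. It reached fold 159 with 662 fragments (613 to 714), but it lay 32697 bp below Clca1 in the interior of the related gene Clca4a. A summit of fold 151 with 628 fragments (580 to 679) lay 23776 bp below Clca1, also with Clca4a nearest, at 5716 bp. Clca1 was itself the nearest gene to 26 of its 49 summits, and the highest of these reached fold 117 with 487 fragments (445 to 532), 7639 bp below the lower boundary. This intergenic flank held 2 more strong summits in 1 region at chr3:144992511-144994626, of folds 79.9 and 70.5. Thus 3 of the 7 summits of fold 50 or more in the window had Clca1 as their nearest gene, and none of the 3 lay inside it. Within the gene the signal was low. The 8 summits inside Clca1 reached a fold of 12.0 at most, and the 5 at its boundaries had folds of 2.89 to 5.05. Of the 49 summits, 33 lay below the gene and 8 above it. On the upper side, the strongest summit had a fold of 69.3, 39869 bp away in the interior of Clca2.

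Fcgbp (chr7:28071236-28120864) encodes a large mucus protein that binds the Fc part of IgG and is stored with Muc2. It was the longest of the 8 genes and its signal was concentrated at the start of transcription. The promoter summit printed in capitals above reached fold 59.2 with 245 fragments (215 to 278), a boundary fold higher than that of 85.7% of all genes. That share counts genes without a boundary summit as lower, and 62.0% of all genes had one. Fcgbp was the only member whose strongest summit lay at its own boundary. The 3 summits inside the gene had folds of at most 4.09, and they came to 0.604 per 10 kb, below the median of 0.800 over all genes. Beyond the promoter, the highest folds in the window belonged to other genes. A summit of fold 43.3 lay 140 bp from Psmc4, a proteasome subunit gene, and one of fold 22.9 at Fbl, which encodes the nucleolar protein fibrillarin. The related gene 9530053A07Rik was nearest to 3 summits, with folds of up to 11.3.

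Agr2 (chr12:35992925-36004081), a disulfide isomerase of the endoplasmic reticulum needed to fold Muc2, had strong summits on both flanks and at its start. The highest in its window, of fold 75.5 with 313 fragments (279 to 350), lay 38622 bp above the gene and 225 bp from a boundary of Tspan13, a tetraspanin gene. Agr2 was the nearest gene to 25 of the 33 summits. The highest of these reached fold 66.9 with 277 fragments (245 to 312) and lay 7896 bp below the gene, which is upstream of its start. On the other flank, one of fold 47.9 lay 3794 bp above the gene. The start itself lay in a region with 4 summits at chr12:35991979-35994014, of folds 36.3, 21.9, 7.22 and 6.98. These are the summits 286 bp upstream and 91, 634 and 927 bp downstream of the start. Another boundary summit, of fold 14.9, lay 869 bp beyond the upper end. Inside Agr2 there were 7.17 summits per 10 kb, the highest density inside any of the 8 genes. Its boundary fold was above that of 75.3% of all genes, with genes that had no boundary summit again counted as lower.

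Zg16 (chr7:127050156-127052675), a small lectin that binds the cell walls of Gram-positive bacteria, had 1 strong summit that no other gene was nearer to. It lay at 127071246, in intergenic sequence 18571 bp above the gene, and reached fold 108 with 448 fragments (407 to 491). At the next summit above it, at 127073494, AI467606 was already the nearest gene, 17286 bp away. The strong summit thus lay between Zg16 and AI467606. Most of the other signal lay toward other genes. Zg16 was the nearest gene to 7 of its 39 summits (17.9%). The remaining 6 of these 7 had folds of 3.37 to 10.1, and the median fold of the 7 was 3.85. The vault protein gene Mvp was nearest to 15 summits, with folds of up to 87.3, and boundaries of other genes took 12. At the 2 boundary summits of Zg16 the folds were 3.85 and 10.1. With a window of 20 kb in place of 50 kb, 8 summits remained, the intergenic one of fold 108 among them.

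Retnlb (chr16:48816856-48818892) encodes RELM-beta, an antibacterial protein that goblet cells secrete and that is induced by bacteria and by worm infection. It had the least signal of the 8 genes, with 4 summits in 4 regions. The strongest reached fold 5.77 with 23 fragments (14.6 to 34.5), 3400 bp above the gene. The summit inside the gene, 72 bp from its lower boundary, reached fold 4.33 with 17 fragments (9.90 to 27.2). The others had folds of 4.81 and 4.57. All 4 pileups overlap within counting error. The weakest summit of the whole list had a fold of 2.65 and 10 fragments, so that the Retnlb summits stood close to the lower limit of the list. Only 1 of the 4 was left when summits with a −log10 q under 10 were removed.

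**Figure D3:**
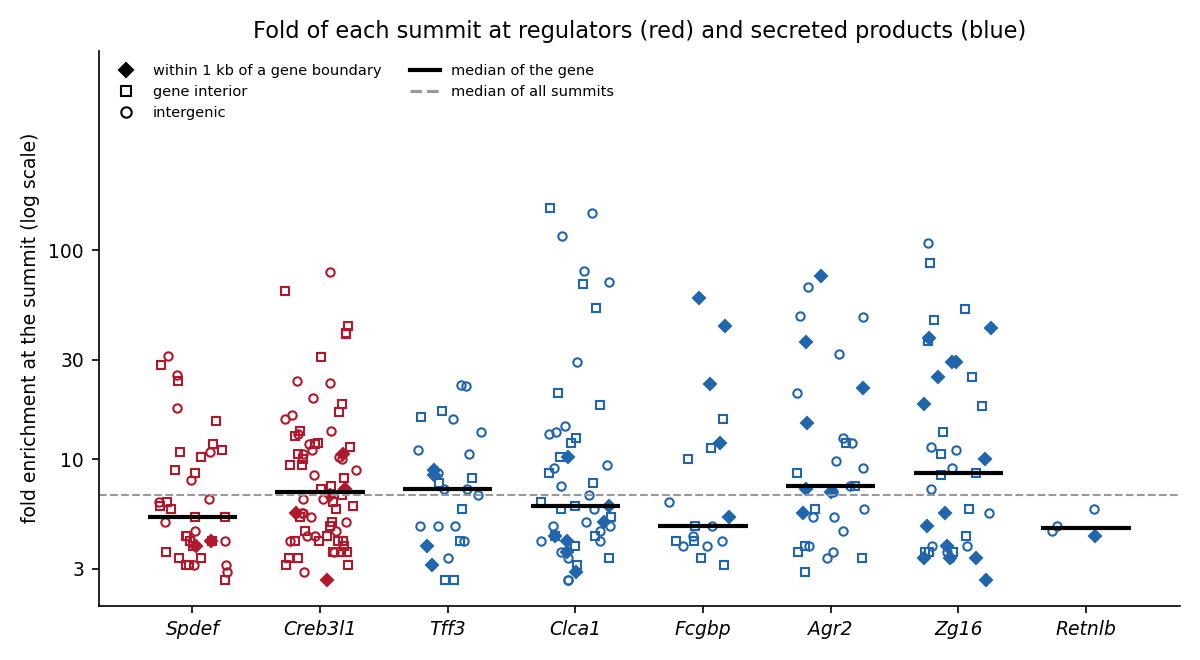
Fold enrichment on a log scale (vertical axis) of every summit at each gene, with regulators in red on the left and products in blue, the class of the summit given by the marker and the median of each gene by the bar. The gene medians run between 4.69 at Retnlb and 8.66 at Zg16, around the median of 6.73 of all summits, while the highest points spread between 5.77 and 159.

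The 2 regulators had a higher median number of summits per gene than the 6 secreted products. The 7 other goblet regulators described below had a median of 29.0, near the 30.0 of the products. The difference was thus not shared by goblet regulators at large. Spdef had 40 and Creb3l1 74, against 27 at Tff3, 49 at Clca1, 19 at Fcgbp, 33 at Agr2, 39 at Zg16 and 4 at Retnlb, so that the groups overlapped, with Clca1 above Spdef. The medians were 57.0 and 30.0, a difference of 27.0 summits that was not tested, since genes are not replicates and the list holds no values per library. It rested largely on Creb3l1, without which it was 10.0, and without Spdef it was 44.0. The groups also differed in how many summits lay inside the genes. The median number inside was 17.5 for the regulators and 2.50 for the products, and 35 of 114 summits of the regulators lay inside the gene itself (30.7%, 95% Wilson interval 23.0 to 39.7), against 23 of 171 of the products (13.5%, 9.13 to 19.4). Gene length moved with this, with a median of 29.2 kb for the regulators and 7.73 kb for the products. Per 10 kb of window the medians were 4.32 summits for the regulators and 2.78 for the products.

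**Figure D4:**
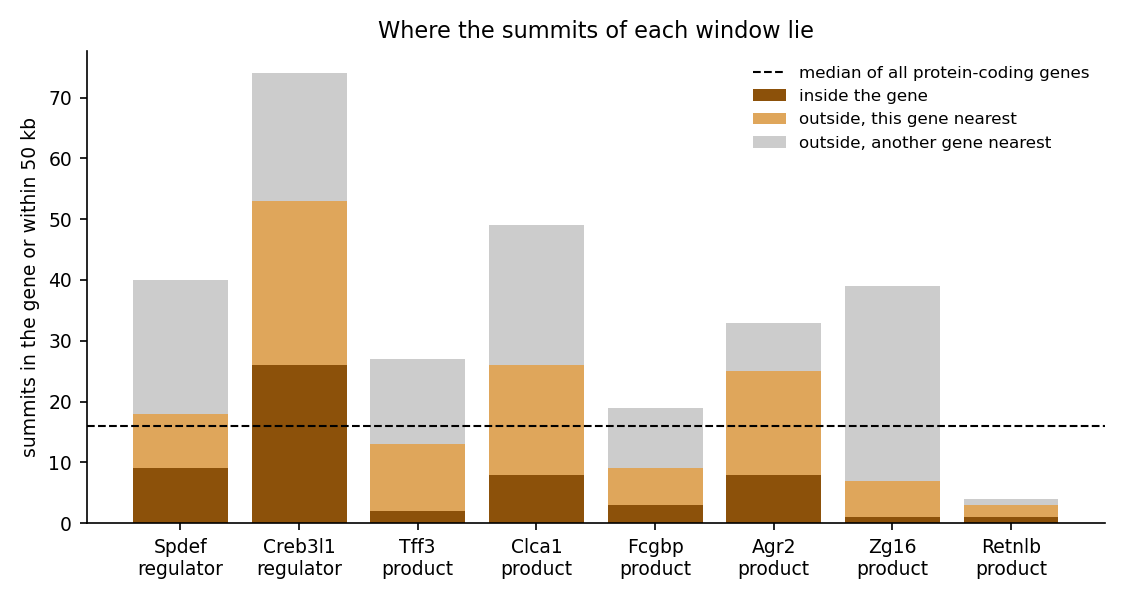
Summits per gene, stacked by position, with regulators left of products and the dashed line at the median of all protein-coding genes, 16. The part inside the gene is 26 at Creb3l1 and 9 at Spdef and at most 8 at any product, and at Zg16 another gene is nearest to 32 of the 39 summits.

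By fold the groups had similar medians, and the highest folds were at products. The median fold was 6.25 at the regulators (interquartile range 4.09 to 11.1) and 6.98 at the products (4.09 to 13.5), a ratio of 0.897. The direction of that ratio was turned by other ways of counting, with 1.08 for 1 summit per region, 1.04 for summits nearest to the member only and 1.02 for windows of 100 kb. With windows of 20 kb, without Spdef and without Agr2 the ratio was 1.00. Folds of 50 or more were found at 2 of 114 summits of the regulators (1.75%, 0.482 to 6.17), both at Creb3l1, and at 13 of 171 of the products (7.60%, 4.50 to 12.6), beside 6.96% of all summits. The intervals of the regulators and the products overlap. Of these 15 strong summits, 8 had the member as their nearest gene, 1 lay at the member's own boundary and 7 were intergenic. Widening the window to 100 kb brought in a summit of fold 169 at Spdef and one of fold 86.4 at Tff3, so the strongest value of these genes depends on the chosen distance.

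In position, a smaller share of the summits of the regulators lay at gene boundaries. Within 1000 bp of a boundary of any protein-coding gene lay 7 of 114 summits of the regulators (6.14%, 3.01 to 12.1) and 38 of 171 of the products (22.2%, 16.6 to 29.0), against 17.4% of all summits. The difference was −16.1 percentage points (95% interval −23.6 to −7.89). The interval covers counting error alone, treats summits of the same region or gene as independent and is not a test between the groups. Of the 114 summits of the regulators, 74 lay at Creb3l1 alone. Gene interiors held 58.8% of the summits of the regulators and 33.9% of those of the products, beside 47.2% of all summits. Many of these lay in neighbouring genes, 16 of 25 at Spdef and 17 of 42 at Creb3l1. At the products, 8 of 8 did so at Tff3, 13 of 19 at Clca1, 5 of 8 at Fcgbp, 3 of 8 at Agr2 and 15 of 15 at Zg16. Intergenic sequence held 35.1% of those of the regulators and 43.9% of those of the products, beside 35.4% of all. Many boundary summits belonged to neighbouring genes. The members' own boundaries took 3 summits of the regulators and 18 of the products, of which 5 were at Clca1 and 5 at Agr2. The windows held 2 other protein-coding genes at Spdef and 1 at Creb3l1, against 2 to 6 at the products. How far this entered the boundary shares was not tested. Without Zg16, in whose window 6 other protein-coding genes lay, the difference was −12.0 percentage points. The highest fold at an own boundary was 4.09 at Spdef and 10.6 at Creb3l1, against 59.2 at Fcgbp, 36.3 at Agr2, 10.1 at Zg16, 8.90 at Tff3, 5.05 at Clca1 and 4.33 at Retnlb. The promoter summit of Spdef, also of fold 8.90, is not among these, since the RefSeq start lies inside its span. At Fcgbp and Agr2 the start is an end of the span.

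Other goblet cell genes had counts in the range of the members. Summits numbered 15 to 41 at 7 other goblet regulators (median 29.0), all below Creb3l1 and all but Klf4 below Spdef. The zinc finger factor gene Klf4, with 41, and the pioneer factor gene Foxa1, with 38, had the most, and Foxa2 with 15 and Atoh1 with 24, the factor that commits cells to the secretory fate, the fewest. An own-boundary summit was present at 2 of the 2 regulators described here, 7 of the 7 other regulators, 10 of 12 other secretory genes of goblet cells, all but Tff1 and Tff2, and 6 of 9 mucin genes, beside 62.0% of all genes. One of fold 20 or more was present at 0 of the 2 regulators and at 3 of the 7 others, the highest of fold 75.3 at Klf4, beside 37.1% of all genes. The median count was 30.0 for the 6 products and 31.0 for the 12 other secretory genes. Of the 12, Muc2 with 54 and Bcas1 with 52 had the most, and Ang4 with 5 and Tff1 with 23 the fewest. A boundary summit of fold 20 or more was present at 2 of the 6 products and at 6 of these 12. The window of Tff1, like that of Tff2, overlaps that of Tff3 and holds the same strongest summit, of fold 22.6. The 9 mucin genes had a median of 51.0, with 60 at Muc13 and 59 at Muc3 at the top and 7 at Muc5b and 28 at Muc20 at the bottom.

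**Figure D5:**
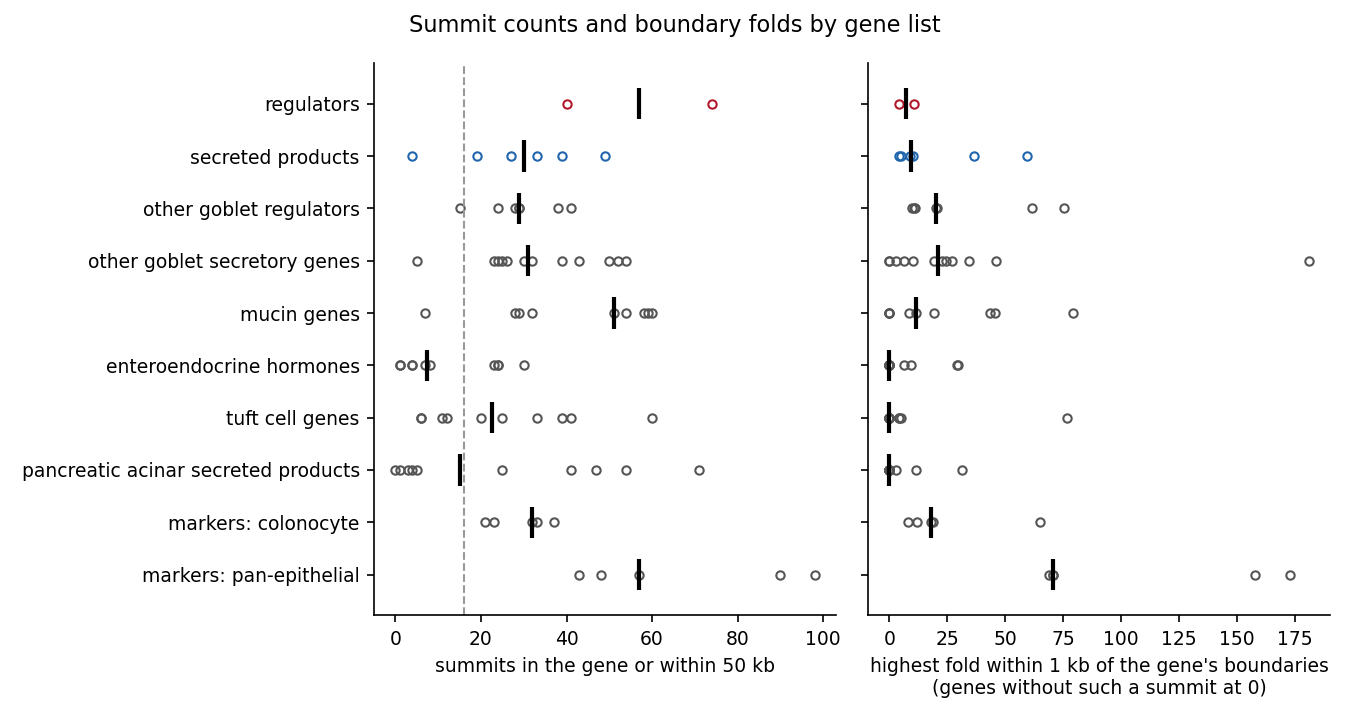
Summits per gene (left) and highest fold within 1000 bp of the gene's own boundaries (right, 0 where there was none) for the regulators, the products and comparison lists, with each gene a circle and the list median a bar. The dashed line is the median of all genes, 16, and the members' boundary folds all lie at or below 59.2, under those of all 5 pan-epithelial genes.

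The labelled tissue was checked by its marker genes, for which summits give a measure of Fos signal and not of expression. The 5 pan-epithelial genes Epcam, Cdh1, Krt8, Vil1 and Cdx2 had 43 to 98 summits. All 5 had a boundary fold of 20 or more, against 37.1% of all protein-coding genes. The 5 colonocyte genes had a median of 32.0 summits, and 1 of the 5 had a boundary fold of 20 or more. Genes of other cells that scraped mucosa can hold also had summits nearby. There were 9 to 28 at T cell, 23 to 43 at myeloid and 1 to 26 at fibroblast genes, beside a median of 16 over all genes. A boundary summit was present at 0 of 3 T cell, 2 of 3 myeloid and 2 of 3 fibroblast genes, beside 62.0% of all genes. One of fold 20 or more was present at 1 of 3 myeloid genes, Itgam with fold 104, and at 0 of 3 T cell and 0 of 3 fibroblast genes. The part of such cells, or of colonocytes, in the values at the goblet cell genes was not tested. No background library was used here, and how much signal Tn5 gives at open chromatin in the absence of Fos was not tested at any of these genes.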

How the data were processed

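Fos was profiled by CUT&Tag in 4 libraries of scraped mouse colon. Per the submitters' processing notes, Bowtie2 was the aligner, mm10 the genome build and MACS2 the peak caller, with no versions or settings given. The deposited file was 1 peak list of 178981 summits in 108406 regions, with the way libraries were combined not given in the sources used here. In the score column the authors give 10 times the −log10 q, cut to whole numbers. The deposited fold is a linear ratio, pileup plus 1 over background plus 1, and the authors' −log10 p and −log10 q columns start at a −log10 q of 1.80. Deposited values were used only within the list.

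All folds were multiples of 0.2405 (tolerance 0.05 steps), which gave the pileup at each summit over a background of 3.16 fragments. Poisson −log10 p-values recomputed from it matched the deposited ones within 0.01 at 100% of the 167414 summits where this could be done. Depth per library is unknown. Gene spans came from a RefSeq gene table of GRCm38.p6, 1-based. Intervals are 95% exact Poisson (pileups), Wilson (shares) and Newcombe (difference of shares), for counting error only, since PCR copies are not independent molecules. Summits of the same gene are not independent either, so the intervals of shares leave out the spread between genes. Scripts ran in Python 3.11.15 with pandas 2.3.3 and scipy 1.17.1 and were tested on simulated data.

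The members and lists were chosen with earlier results of these data known. No test was made across groups, since the list has no values per library. The text names all 8 members, the 2 genes with the most and the 2 with the fewest summits of each list, and neighbours in or near which strong summits lay. Other neighbours, and the marker genes, were named after their values were seen. A motif search around summits was planned and not run, since no genome sequence was used here. Alternatives were windows of 20 and 100 kb, −log10 q of at least 5 and 10, 1 summit per region, no regions over 3000 bp, nearest gene only, windows around both boundaries, boundaries of 2000 bp and leaving out single members.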

Additional observations from a re-analysis of the deposited data

How the results depend on the processing

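The regulators had the higher median summit count under all 16 alternatives, 5 of which, each leaving out 1 product, were chosen after seeing the data. Those that leave out 1 member could not turn the sign. Without any 1 product the median of the products is 27.0 or 33.0, and either regulator alone has at least 40 summits. The difference of 27.0 summits was 13.0 with −log10 q of at least 10, 15.0 with 1 summit per region, 17.8 with windows around both boundaries, 10.0 without Creb3l1 and 44.0 without Spdef. In the other 11 it ran between 22.0 and 40.5. The ratio of median folds, 0.897, was reversed with windows of 100 kb (1.02), 1 summit per region (1.08) and nearest genes only (1.04), and the cause was not tested. The ratio was 1.00, so that the groups had the same median, with windows of 20 kb, without Spdef and without Agr2. The difference in boundary share kept its sign in 17 of 17 alternatives and was −23.7 percentage points with boundaries of 2000 bp. Leaving out 1 member could not turn this sign either. Each regulator had a lower share, 2 of 40 at Spdef and 5 of 74 at Creb3l1, than any product, the lowest being 7 of 49 at Clca1. Windows around both boundaries use the same summits for the fold and the share, so they could not move these. For single members, 26 of 64 recomputed counts and 10 of 64 strongest folds were classed as moved, and the other 38 and 54 were not. That class was broad, since Creb3l1 with 53 in place of 74 and Retnlb with 6 in place of 4 were not classed as moved. No paired analysis was possible because the peak list has no values per library. Depth per library is unknown, and summits under a −log10 q of 1.80 are not in the list.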

Other observations

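Summits were also counted at genes of rarer epithelial cell types and of another secretory organ. The 10 enteroendocrine hormone genes had a median of 7.5 summits, with 30 at Sct (secretin) and 24 each at Cck and Chga, against 1 each at Insl5 and Sst, and 4 of 10 had a summit within 1000 bp of a boundary, beside 62.0% of all protein-coding genes. The 10 tuft cell genes had a median of 22.5, with 60 at Sh2d6 and 41 at the channel gene Trpm5, against 6 each at Alox5ap and Dclk1, and a boundary summit at 4 of 10. Secreted products of pancreatic acinar cells, which the colon does not make in quantity, had a median of 15.0 over 10 genes, with 71 at Cela1 and 54 at Cel, against 1 at Pnlip and 0 at Amy2a5, and a boundary summit at 3 of 10. A boundary summit was present at 10 of 12 other goblet secretory genes, 6 of 9 mucin genes, 5 of 5 colonocyte genes and 5 of 5 pan-epithelial genes, so its presence is not particular to goblet cell genes. Summit counts in windows of 50 kb reached high values at genes of another organ too. At Cel none of the 54 summits lay inside the gene or at its boundaries, while at Cela1 13 lay inside it. These lists were chosen with earlier results known, and no test was made between them.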
